A study of Mus musculus with 8 samples.

Results

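The globin and erythroid transcripts described here are 6 genes, Hba-a1, Hba-a2, Hbb-bs, Hbb-bt, Alas2 and Slc4a1, taken by gene name from the 42649 genes of the deposited table. Haemoglobin, the oxygen carrier of red cells, is a tetramer of alpha and beta globin chains that each hold a heme group. In adult mice the alpha chains come from the neighbouring genes Hba-a1 and Hba-a2, and in the C57BL/6 strain the beta chains come from Hbb-bs and Hbb-bt. Alas2 encodes the erythroid aminolevulinate synthase, which carries out the rate-limiting first step of heme synthesis in red cell precursors. Slc4a1 encodes the band 3 anion exchanger of the red cell membrane. Reticulocytes, the youngest circulating red cells, keep globin mRNA after they have lost the nucleus, and macrophages of the liver engulf aged red cells and recycle their iron.

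The cells were tumour-associated macrophages, sorted by flow cytometry as positive for CD45, CD11b and F4/80 from liver metastases of MC38, a mouse colon carcinoma line. The hosts were C57BL/6 mice, 4 given a high-fat diet (HFD), in which fat supplied 60% of the calories, and 4 given a control diet (CD), in which it supplied 10%. Each diet was fed for 6 weeks before the tumour cells were injected into the spleen, so both groups carried tumours, and the livers were taken 19 days after injection. The labels name no other genotype or agent, and the metastases were seeded by 1 cell line in every mouse. The samples carry replicate numbers 1 to 4 in each diet, and the libraries are named here by diet and number.

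Total counts were 44997865 to 55717378 per library in HFD and 37180157 to 52008248 in CD. CD 3 and CD 4 stood apart from the other libraries in genes detected, normally silent receptor genes and ribosomal protein genes. Genes with a count numbered 21571 to 23776 in HFD, 23930 and 24556 in CD 1 and CD 2, and 34495 and 33449 in CD 3 and CD 4. Olfactory and vomeronasal receptor genes, which are normally silent outside sensory epithelia, took 32.9 to 46.1 CPM (counts scaled to library size) in HFD, 63.2 and 69.2 CPM in CD 1 and CD 2, and 279 and 295 CPM in CD 3 and CD 4. Ribosomal protein genes took 4.70% to 5.92% of counts in the HFD libraries, 5.08% and 4.90% in CD 1 and CD 2, and 1.54% and 1.75% in CD 3 and CD 4. For that reason the results are given with and without CD 3 and CD 4. From here on, CPM is further scaled by TMM, a factor that corrects for differences in library composition. The summed level of 8 gate and macrophage markers (Ptprc, Itgam, Adgre1, Csf1r, Cd68, Lyz2, Fcgr1, Mertk) was 5323, 20617, 28703 and 57616 CPM in HFD 1 to 4. In CD it was 24250 to 34039 CPM. HFD 1 was thus the lowest library by this sum, and it also stood apart by its TMM factor of 2.02, against 0.690 to 1.21 in the others. None of these 8 markers passed the test between the diets (edgeR, adjusted p under 0.05), where 1 of all 17367 genes tested did. The sum was mostly Lyz2, at 3595 to 54126 CPM per library. Of the 8 log2 fold changes of HFD over CD, 4 were positive and 4 negative. Mertk had 15.9 to 43.5 CPM in HFD and 6.90 to 8.47 CPM in CD, without overlap. Adgre1 was lowest in CD 3 and CD 4, at 100 and 93.4 CPM, against 198 to 682 CPM elsewhere. Fcgr1 was highest there, at 479 and 447 CPM. Whether macrophage content was alike across libraries was not tested.

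Both alpha genes lie on chromosome 11 of build GRCm38. Hba-a1 spans 32283511 to 32284465 and Hba-a2 spans 32296489 to 32297298, both on the plus strand. The beta genes lie on chromosome 7 on the minus strand, Hbb-bt at 103812524 to 103813996 and Hbb-bs at 103826534 to 103827928. Alas2 lies on chromosome X at 150547375 to 150570638 on the plus strand, and Slc4a1 on chromosome 11 at 102348824 to 102365280 on the minus strand. The stretches just upstream of 1 alpha gene, 1 beta gene and Alas2 are shown because the globins of both clusters varied together across libraries and Alas2 followed them in part. They come from the RefSeq promoter table on GRCm38.p6, which matched 5 of the 6 members, and each ends at the base before the deposited gene span. Capitals mark matches, on either strand, to GATAA, the core of the site bound by GATA factors; CCAAT, a common promoter box; CACCC, a box bound by Klf factors; and TATAA, the TATA box.
Hba-a2 (chr11:32296242-32296488, plus strand): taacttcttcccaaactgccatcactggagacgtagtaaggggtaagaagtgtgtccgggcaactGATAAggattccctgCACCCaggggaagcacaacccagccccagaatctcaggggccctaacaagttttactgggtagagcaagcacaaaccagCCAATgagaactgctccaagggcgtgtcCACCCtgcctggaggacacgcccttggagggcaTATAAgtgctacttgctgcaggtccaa
Hbb-bs (chr7:103827929-103828178, minus strand): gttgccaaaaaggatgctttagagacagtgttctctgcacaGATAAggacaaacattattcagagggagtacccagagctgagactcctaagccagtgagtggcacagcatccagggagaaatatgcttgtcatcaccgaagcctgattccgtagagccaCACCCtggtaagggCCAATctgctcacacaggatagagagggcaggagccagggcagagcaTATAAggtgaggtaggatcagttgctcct
Alas2 (chrX:150547167-150547374, plus strand): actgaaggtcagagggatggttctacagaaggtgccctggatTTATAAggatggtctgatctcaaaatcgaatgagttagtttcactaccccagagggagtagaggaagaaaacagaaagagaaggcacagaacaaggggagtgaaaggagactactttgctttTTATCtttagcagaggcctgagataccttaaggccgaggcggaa

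Over the 250 bases upstream of the RefSeq start, GATAA was present in all 5 matched members and in 22.6% of the 32817 promoters in the table. TATAA was also present in all 5 and in 22.8% of all promoters. In the 4 globins a match lay 27 to 30 bases upstream of the start, with a second in Hbb-bt on the opposite strand at 229 bases, and in Alas2 its overlapping matches on both strands began 207 and 208 bases upstream. CCAAT was found in the 4 globins and in 33.8% of promoters, and no match was in the Alas2 window. CACCC was found in all 5 and in 52.0% of promoters, so it is common. In Alas2 its matches lay 30 to 40 bases upstream, inside the deposited gene span and so outside the stretch printed above. The windows of Hba-a1 and Hba-a2 shared an identical run of 247 bases, whereas the longest run shared by Hbb-bs and Hbb-bt was 14 bases and that shared by Hba-a1 and Hbb-bs was 9. These matches describe the letters in the windows and were not tested for binding.

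Per length, the alpha globins were the most abundant members in every library. Hba-a1 had 122, 683, 373 and 3279 CPM in HFD 1 to 4, against 832, 741, 8716 and 7761 CPM in CD 1 to 4. Hba-a2 had 102, 586, 256 and 2241 CPM in HFD 1 to 4, against 724, 671, 6104 and 5299 CPM in CD 1 to 4. CD 3 and CD 4 were the highest libraries for both genes, HFD 4 came next, HFD 1 was the lowest, and the diets overlapped because HFD 4 lay above CD 1 and CD 2. The library with the highest level of Hba-a1 exceeded the one with the lowest 71.2-fold. Within CD alone, the mean of CD 3 and CD 4 was 10.5 times that of CD 1 and CD 2 for Hba-a1 and 8.18 times for Hba-a2. Hba-a1 averaged 1114 ± 1461 CPM in HFD and 4512 ± 4320 CPM in CD (SD, n = 4 each), so the SD was about as large as the mean in both diets.

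The beta globins too were highest in CD 3 and CD 4, next in HFD 4 and lowest in HFD 1. Hbb-bs had 32.4, 157, 126 and 1096 CPM in HFD 1 to 4, against 225, 177, 3187 and 3250 CPM in CD 1 to 4. Hbb-bt had 15.6, 65.3, 49.2 and 436 CPM in HFD 1 to 4, against 99.9, 73.6, 1150 and 1310 CPM in CD 1 to 4. The diets again overlapped through HFD 4, and HFD 1 to 3 lay below CD 1 and CD 2 for both genes. HFD 4 exceeded the next HFD library 6.98-fold for Hbb-bs and 6.67-fold for Hbb-bt, a wider gap than the 4.80-fold of Hba-a1 and the 3.83-fold of Hba-a2. Hbb-bs varied most of the 4 globins, with a highest library 100.4 times its lowest. Together the 4 globins took 0.0548% to 0.507% of all counts in HFD libraries and 0.186% to 1.32% in CD libraries.

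**Figure D1:**
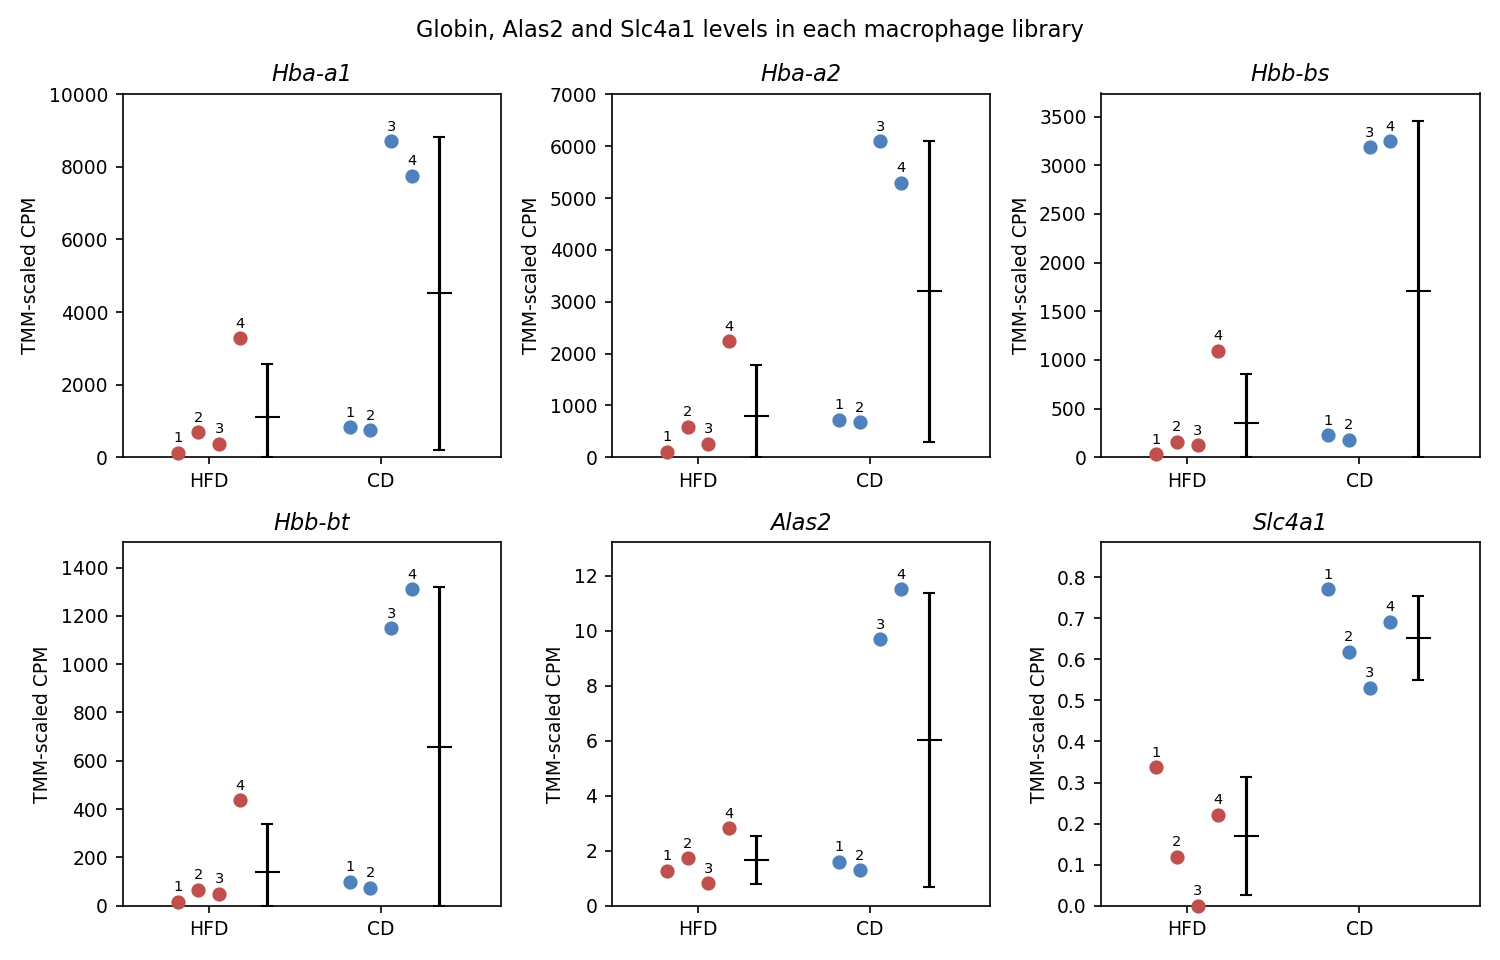
TMM-scaled CPM of each gene in every library (points, numbered by replicate, HFD in red and CD in blue), with the mean and SD of each diet as a black bar that is cut off at 0; every axis starts at 0 and has its own range. The 4 globins and Alas2 were highest in CD 3 and CD 4 with HFD 4 next, while the 4 CD values of Slc4a1 lay between 0.531 and 0.770 CPM, above all 4 HFD values.

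Alas2 transcripts were rarer, at 34 to 120 counts per library in HFD and 75 to 316 in CD. Its level was 1.26, 1.73, 0.807 and 2.83 CPM in HFD 1 to 4, against 1.596, 1.29, 9.69 and 11.5 CPM in CD 1 to 4. As with the globins, CD 3 and CD 4 were highest and HFD 4 next, but HFD 1 and HFD 2 were level with CD 1 and CD 2. The whole span of Alas2 lies within the deposited span of Apex2, a DNA repair gene on the opposite strand, and the protocol describes no step that marks the strand, so reads of the pair cannot be told apart by strand. Apex2 had 2.13, 2.02, 1.21 and 1.86 CPM in HFD 1 to 4, against 2.09, 2.77, 1.43 and 3.13 CPM in CD 1 to 4, so CD 4 was its highest library, and its part in the Alas2 level was not tested. No other member overlapped a gene of the table.

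Slc4a1 was near the lower limit of what these libraries could measure. It had 32, 8, 0 and 8 counts in HFD 1 to 4, against 42, 36, 16 and 19 counts in CD 1 to 4. That is 0.337, 0.119, 0 and 0.222 CPM in HFD 1 to 4, against 0.770, 0.619, 0.531 and 0.691 CPM in CD 1 to 4. All 4 HFD libraries lay below all 4 CD libraries, and CD 3 and CD 4 were not above CD 1 and CD 2, with a ratio of their means of 0.880. The 0 in HFD 3 allows a level of up to 0.0667 CPM before TMM scaling, the level of 3 counts, which covers counting error only. Reads in normally silent genes were also higher in every CD library than in any HFD library. The 1514 olfactory and vomeronasal receptor genes together took 32.9 to 46.1 CPM in HFD and 63.2 to 295 CPM in CD, before TMM scaling. The part of such background in the Slc4a1 counts was not tested.

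No member passed the test between the diets. Counts of the 17367 genes that passed the filter on low counts were fitted in edgeR with diet as the only term, and 0 of the 6 members reached an adjusted p under 0.05, where 1 gene in all did, or 0.00576% of those tested. At an unadjusted p under 0.05, 1 member (Alas2, lower in HFD) was counted, against 7.56% of all genes tested in the same direction, and 0 members were higher in HFD at that level, against 5.31%. With the replicate number as a block in edgeR, the 4 globins, all lower in HFD, had an unadjusted p under 0.05 and Alas2 and Slc4a1 did not, against 7.81% of all genes as lower in HFD in that fit. No member passed after adjustment with the block either (edgeR adjusted p of 0.245 to 0.384). The members that passed the filter were all 6, and Slc4a1 did so through the 4 CD libraries and HFD 1. All 6 fitted log2 fold changes of HFD over CD were -1.86 or lower, with a median over all genes tested of 0.011 and with 9.26% of them at -1.5 or lower.

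The largest fitted differences were in the beta globins. The log2 fold change of HFD over CD was -2.28 ± 1.22 for Hbb-bs (SE, edgeR adjusted p = 0.451) and -2.22 ± 1.17 for Hbb-bt (edgeR adjusted p = 0.445). It was -2.02 ± 1.13 for Hba-a1 (edgeR adjusted p = 0.466) and -2.01 ± 1.05 for Hba-a2 (edgeR adjusted p = 0.443). Alas2 stood at -1.86 ± 0.73 (edgeR adjusted p = 0.328) and Slc4a1 at -1.91 ± 0.95 (edgeR adjusted p = 0.421). Read by number, the HFD library lay below the CD library in 4 of 4 pairs for the 4 globins and Slc4a1 and in 3 of 4 for Alas2. Of all genes tested, 13.7% were lower in HFD in all 4 pairs. The numbers were not shown to pair the libraries.

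An exact permutation test of the difference in mean log2 CPM over all 70 assignments, two-sided and not adjusted over the 6 genes, cannot give a p below 0.0286. The exact test gave p = 0.143 for each of the 4 globins and p = 0.257 for Alas2. For Slc4a1 it gave the smallest value it allows, 0.0286. Of all genes tested, 4.8% had all 4 HFD libraries below all 4 CD libraries, as 1 member (Slc4a1) did, and 3.57% had all 4 above, as 0 members did. When levels were scaled by library size only, Slc4a1 stood at 0.679, 0.144, 0 and 0.159 CPM in HFD 1 to 4 and at 0.819, 0.692, 0.365 and 0.511 CPM in CD 1 to 4. On that scale the diets overlapped through HFD 1, and the exact permutation test gave p = 0.0857.

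Without CD 3 and CD 4 the direction turned for 5 of the 6 genes. The log2 fold change of HFD over CD then stood at 0.48 ± 1.10 for Hba-a1, 0.17 ± 1.03 for Hba-a2, 0.79 ± 1.16 for Hbb-bs, 0.69 ± 1.11 for Hbb-bt and 0.19 ± 0.55 for Alas2 (SE, edgeR adjusted p of 0.982 to 0.996). Slc4a1 kept its direction at -2.0 (edgeR adjusted p = 0.942). HFD 4 acted the other way on the globins, since without it the log2 fold change was -3.47 for Hba-a1, -3.30 for Hba-a2, -3.97 for Hbb-bs and -3.87 for Hbb-bt, still with no adjusted p under 0.05 in edgeR.

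Setting libraries of like number beside each other gave a lower value in HFD for the globins in both cases. With replicate numbers 1 and 2 only, the log2 fold change of HFD over CD was -0.97 for Hba-a1, -1.02 for Hba-a2, -1.09 for Hbb-bs and -1.10 for Hbb-bt. The SE of these 4 was 0.68 to 0.82 and the edgeR adjusted p 0.549 to 0.654. HFD 2 lay close to CD 2 (Hba-a1 at 683 against 741 CPM), so the lower value came mainly from HFD 1 (122 CPM, against 832 in CD 1). It was 0.055 for Alas2 and -1.57 for Slc4a1 in the same fit. With replicate numbers 3 and 4 only, a fit chosen after seeing the data, it was -2.09 for Hba-a1, -2.11 for Hba-a2, -2.32 for Hbb-bs, -2.26 for Hbb-bt, -2.47 for Alas2 and -2.38 for Slc4a1. Alas2 passed the threshold in the fit of numbers 3 and 4 (edgeR adjusted p = 0.0157). It was the only 1 of the 6 members to do so, where 3310 of the 20106 genes tested in that fit, or 16.5%, passed as lower in HFD. Whether the difference between the 2 fits was itself beyond error was not tested. No label names a batch, and diet and library quality cannot be told apart in numbers 3 and 4, since both CD libraries there are the ones that stood apart.

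**Figure D2:**
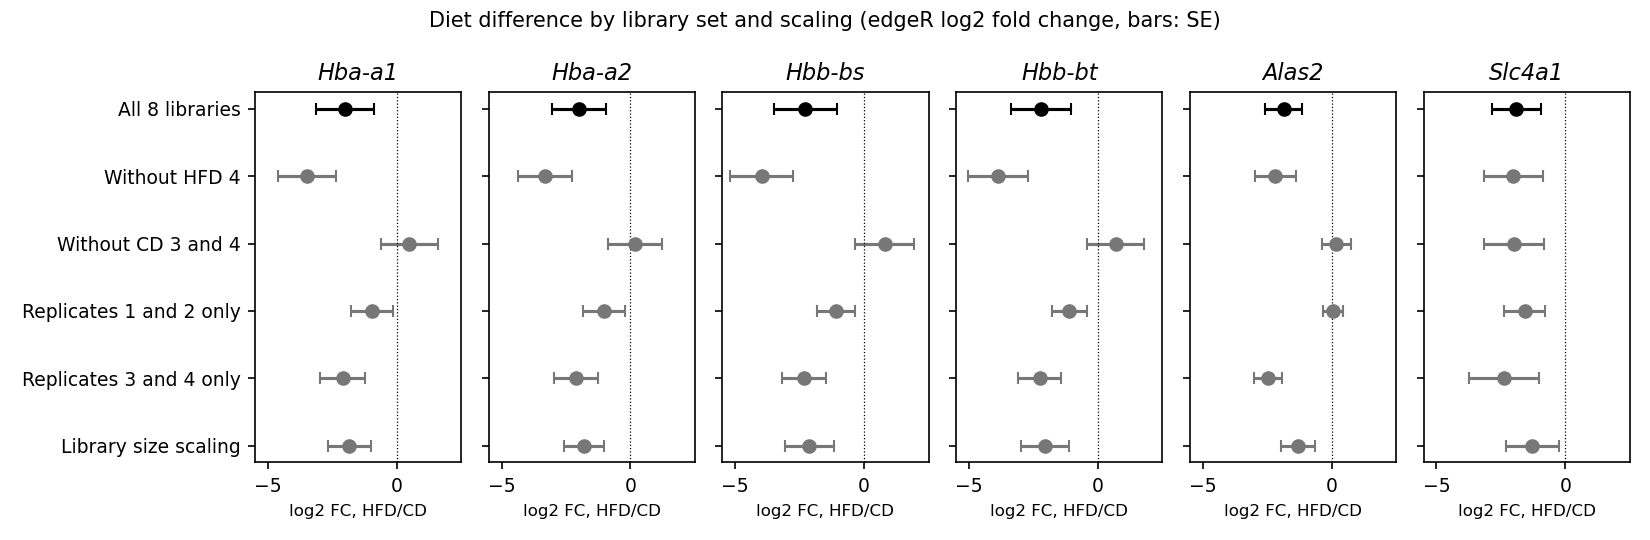
Log2 fold change of HFD over CD for each gene (points, with SE bars, from edgeR) with all libraries, without HFD 4, without CD 3 and CD 4, within replicate numbers 1 and 2, within 3 and 4, and with scaling by library size only; the dotted line marks 0. The 4 globins and Alas2 moved above 0 when CD 3 and CD 4 were left out, and Slc4a1 stayed near -2.0.

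Per length, the order of the members by mean FPKM (fragments per kilobase scaled by library depth, as the authors computed it) was Hba-a1, Hba-a2, Hbb-bs, Hbb-bt, Alas2, Slc4a1 in both diets. Hba-a1 averaged 1001 ± 1044 FPKM in HFD and 3652 ± 3202 in CD, while Alas2 averaged 0.651 ± 0.272 in HFD and 1.66 ± 1.32 in CD (SD, n = 4 each). Slc4a1 averaged 0.0415 ± 0.0514 FPKM in HFD and 0.102 ± 0.0319 in CD. Hba-a1 and Hba-a2 were neighbours within their spread and changed places, with Hba-a2 at the higher FPKM in replicates 1 and 2 of both diets and Hba-a1 in replicates 3 and 4. Hbb-bs was above Hbb-bt in all 8 libraries. By FPKM, Hba-a1 ranked 269, 108, 180 and 50 among all genes in HFD 1 to 4, against 98, 103, 23 and 21 in CD 1 to 4.

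How reads were shared between the copies is uncertain. The coding sequences of Hba-a1 and Hba-a2 differ at 1 of 429 bases and those of Hbb-bs and Hbb-bt at 1 of 444 in GENCODE release M21. Of all 100-base windows, 56.5% of those in the Hba-a1 transcript also occur in Hba-a2 and 62.6% of those in Hbb-bs also occur in Hbb-bt, whereas no window is shared between Hba-a1 and Hbb-bs. With the copies summed before the fit, the log2 fold change of HFD over CD was -2.01 for alpha globin (edgeR adjusted p = 0.460) and -2.26 for beta globin (edgeR adjusted p = 0.452).

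The makeup of the globin reads differed between low and high replicate numbers and overlapped between the diets. The ratio of alpha to beta globin, summed over copies in FPKM, was 4.72, 5.78, 3.61 and 3.61 in HFD 1 to 4, against 4.85, 5.71, 3.44 and 2.87 in CD 1 to 4. Numbers 1 and 2 ran from 4.72 to 5.78 and numbers 3 and 4 from 2.87 to 3.61, without overlap, whereas the diets overlapped almost wholly at 4.43 ± 1.04 in HFD and 4.22 ± 1.298 in CD (SD, n = 4 each). Hba-a1 made up 54.6%, 53.8%, 59.3% and 59.4% of alpha globin counts in HFD 1 to 4, against 53.5%, 52.5%, 58.8% and 59.4% in CD 1 to 4. Here too numbers 1 and 2 and numbers 3 and 4 did not overlap. Hbb-bs made up 67.5% to 71.9% of beta globin counts in HFD and 69.2% to 73.5% in CD, with HFD 1 the lowest and CD 3 the highest. The widest 95% Wilson interval of these shares was 2.72 percentage points, which covers counting error only. The division by number was seen in the data and is given without a test.

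**Figure D3:**
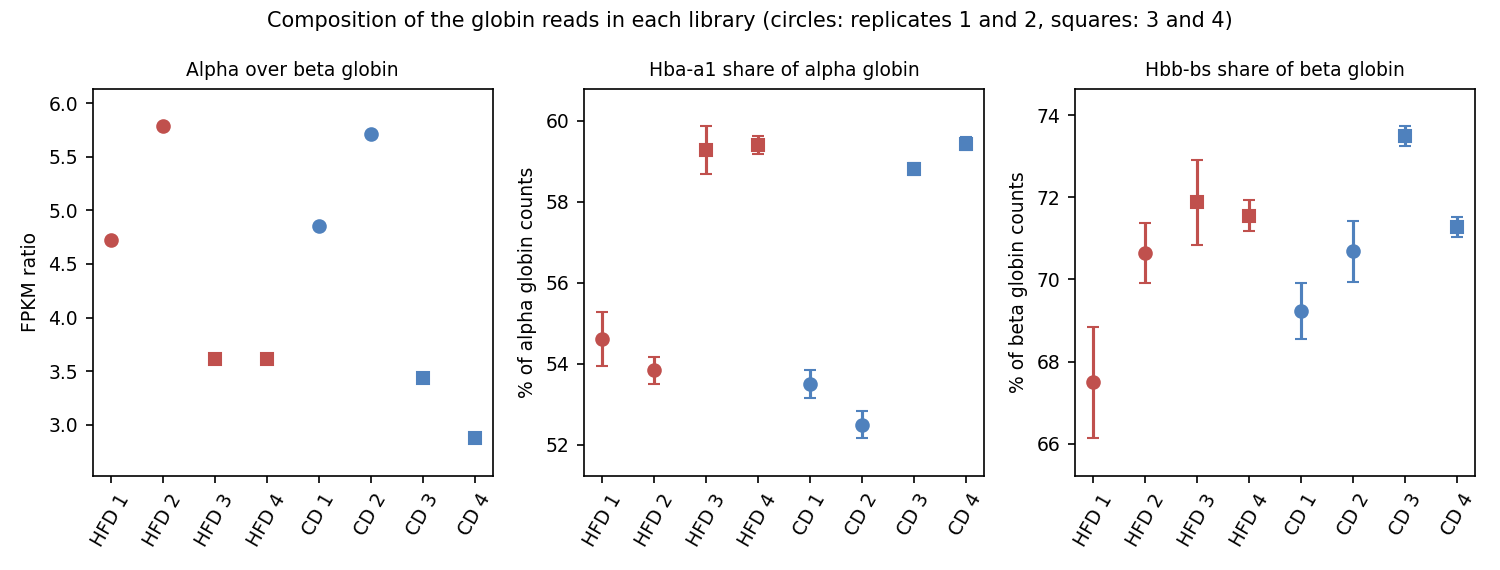
Ratio of alpha to beta globin in FPKM, share of Hba-a1 in alpha globin counts and share of Hbb-bs in beta globin counts in each library (HFD in red, CD in blue, circles for replicates 1 and 2, squares for 3 and 4), with 95% Wilson intervals on the shares; the axes do not start at 0. Replicates 1 and 2 of both diets have ratios of 4.72 to 5.78 and replicates 3 and 4 have 2.87 to 3.61.

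Alas2 and Slc4a1 were set against the globins of the same library. Per 10000 globin counts, Alas2 had 46.5, 11.6, 10.04 and 4.01 counts in HFD 1 to 4, against 8.48, 7.75, 5.06 and 6.53 in CD 1 to 4. HFD 1, the library with the fewest globin reads, had the most Alas2 per globin read, and HFD 4 the fewest. HFD 1 also had the most counts of Apex2, whose span encloses Alas2, at 202 against 43 to 161 in the other libraries. The part of Apex2 reads in this ratio was not tested. Slc4a1 had 12.4, 0.798, 0 and 0.314 counts per 10000 globin counts in HFD 1 to 4, against 4.10, 3.72, 0.277 and 0.392 in CD 1 to 4. HFD 3, HFD 4, CD 3 and CD 4 were thus the lowest for Slc4a1 per globin read.

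Other hemoglobin genes were close to absent. Of 9 listed, 4 were in the table (Hbq1a, Hbb-y, Hba-x and Hbq1b, embryonic or little-used globin genes), none passed the filter, and their summed level was 0 to 0.277 CPM in HFD and 0.147 to 0.797 CPM in CD. Of the 8 remaining heme synthesis enzymes, all were tested and 0 passed in either direction, with a median log2 fold change of 0.27. Alas1, the housekeeping counterpart of Alas2, had 7.49, 30.7, 12.3 and 18.5 CPM in HFD 1 to 4, against 43.1, 45.6, 104 and 74.4 CPM in CD 1 to 4, without overlap (log2 fold change -1.95 ± 0.47, SE, edgeR adjusted p = 0.244). Fech, which inserts iron into the porphyrin ring as the last step, averaged 12.4 ± 1.55 CPM in HFD and 8.84 ± 0.853 CPM in CD (SD, n = 4 each, edgeR adjusted p = 0.383). Alad, which acts just after aminolevulinate synthase, averaged 14.2 ± 8.89 CPM in HFD and 8.37 ± 5.73 CPM in CD. Alas2 and Alas1 thus both lay lower in HFD by their means, neither past the threshold.

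Genes of the red cell membrane did not share the globin pattern as a list. Of 14 listed with Slc4a1 left out, 9 were tested and 0 passed in either direction. Of the 9, 3 had a positive and 6 a negative log2 fold change, and the median was -1.14 against 0.011 over all genes. A gene near the lower limit can pass the filter mainly through the diet in which it is higher. Rhag was such a low gene, at 0 to 0.190 CPM in HFD and 0.206 to 1.02 CPM in CD. The signs and the median were therefore not read as a diet difference. The 14 genes summed to 21.9 to 39.5 CPM in HFD and 26.3 to 33.6 CPM in CD. Sptb, the erythroid beta spectrin of the membrane skeleton, had 0.126, 0.417, 0.0949 and 0.222 CPM in HFD 1 to 4, against 0.275, 0.498, 1.73 and 2.07 CPM in CD 1 to 4 (log2 fold change -2.38 ± 0.82, SE, edgeR adjusted p = 0.301). It was highest in CD 3 and CD 4, as the globins were. Gypc, glycophorin C, which is also made outside red cells, averaged 5.14 ± 2.18 CPM in HFD and 2.52 ± 0.414 CPM in CD (edgeR adjusted p = 0.305). Rhag, the Rh-associated glycoprotein, averaged 0.110 ± 0.0955 CPM in HFD and 0.479 ± 0.368 CPM in CD (edgeR adjusted p = 0.431).

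Regulators that define red cell precursors were at or near 0. Klf1, the erythroid Klf factor, had 16 counts over all 8 libraries and none in 5 of them, with a highest level of 0.0843 CPM. Gata1, the GATA factor of erythroid and megakaryocyte cells, had 32 counts in all and none in 4 libraries, with a highest level of 0.364 CPM in CD 4. Of the 8 transcription factors and Epor listed, 5 were tested and 0 passed, and their summed level was 11.98 to 23.8 CPM in HFD and 15.3 to 25.7 CPM in CD. Nfe2, shared with megakaryocytes and neutrophils, averaged 3.79 ± 1.23 CPM in HFD and 8.11 ± 5.71 CPM in CD (edgeR adjusted p = 0.374). Lmo2, which is used in several blood lineages, averaged 12.8 ± 6.17 CPM in HFD and 8.86 ± 1.33 CPM in CD (edgeR adjusted p = 0.530). In bulk libraries, fewer cells of a type and less of its RNA per cell cannot be told apart.

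Of 19 late erythroid genes listed, 18 were in the table and 14 were tested, with 0 past the threshold and a median log2 fold change of -0.12. Cat, the peroxide-degrading catalase, averaged 14.4 ± 1.05 CPM in HFD and 8.61 ± 2.47 CPM in CD (edgeR adjusted p = 0.306). Car2, a carbonic anhydrase of red cells and other tissues, averaged 1.20 ± 0.535 CPM in HFD and 2.54 ± 0.405 CPM in CD (edgeR adjusted p = 0.315). Slc25a37, mitoferrin, which brings iron into mitochondria, had 12.6, 9.64, 6.74 and 5.46 CPM in HFD 1 to 4, against 8.80, 8.83, 21.8 and 29.7 CPM in CD 1 to 4 (edgeR adjusted p = 0.386). Like the globins it was highest in CD 3 and CD 4, but HFD 4 was its lowest library.

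Genes by which macrophages handle red cells and heme were also read. All 14 were tested, 0 passed, 8 had a positive and 6 a negative log2 fold change, and the median was 0.26. Hpx, hemopexin, a heme-binding plasma protein made mainly by hepatocytes, averaged 4.00 ± 0.914 CPM in HFD and 16.1 ± 1.42 CPM in CD, without overlap (log2 fold change -2.01 ± 0.25, SE, edgeR adjusted p = 0.0883). The 12 hepatocyte markers summed to 23.3 to 54.3 CPM in HFD and 63.3 to 108 CPM in CD, and 0 of the 11 tested passed. Vcam1, an adhesion molecule of red cell-clearing macrophages and of endothelium, averaged 156 ± 52.3 CPM in HFD and 45.7 ± 23.8 CPM in CD (edgeR adjusted p = 0.244). Slc48a1, a heme transporter of the phagosome, averaged 30.6 ± 9.94 CPM in HFD and 18.3 ± 3.55 CPM in CD (edgeR adjusted p = 0.324).

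The sum of 14 neutrophil markers was also highest in the libraries with the most globin reads. Of the 14, 0 passed the test between the diets, where 1 of all 17367 genes tested did. The 14 neutrophil markers summed to 399, 2051, 3898 and 6899 CPM in HFD 1 to 4, against 1571, 1306, 104631 and 106717 CPM in CD 1 to 4. In CD 3 and CD 4 most of that was S100a8 (71829 and 73616 CPM), S100a9 (19043 and 19949) and Retnlg (11989 and 11228). The list was not uniform, with 10 negative log2 fold changes of HFD over CD and 4 positive (Camp, Ltf, Mpo and Elane). Camp was lowest in CD 3 and CD 4, at 4.65 and 5.02 CPM against 12.7 to 27.3 CPM elsewhere. The 4 globins summed to 272, 1491, 804 and 7052 CPM in HFD 1 to 4, against 1881, 1663, 19155 and 17619 CPM in CD 1 to 4. HFD 3 had more neutrophil and fewer globin reads than CD 1 and CD 2. The 12 platelet and megakaryocyte markers summed to 16.1 to 30.7 CPM in HFD and 24.3 to 28.2 CPM in CD, and 0 of the 10 tested passed. The part of these cell types and of library quality in the globin levels was not tested.

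**Figure D4:**
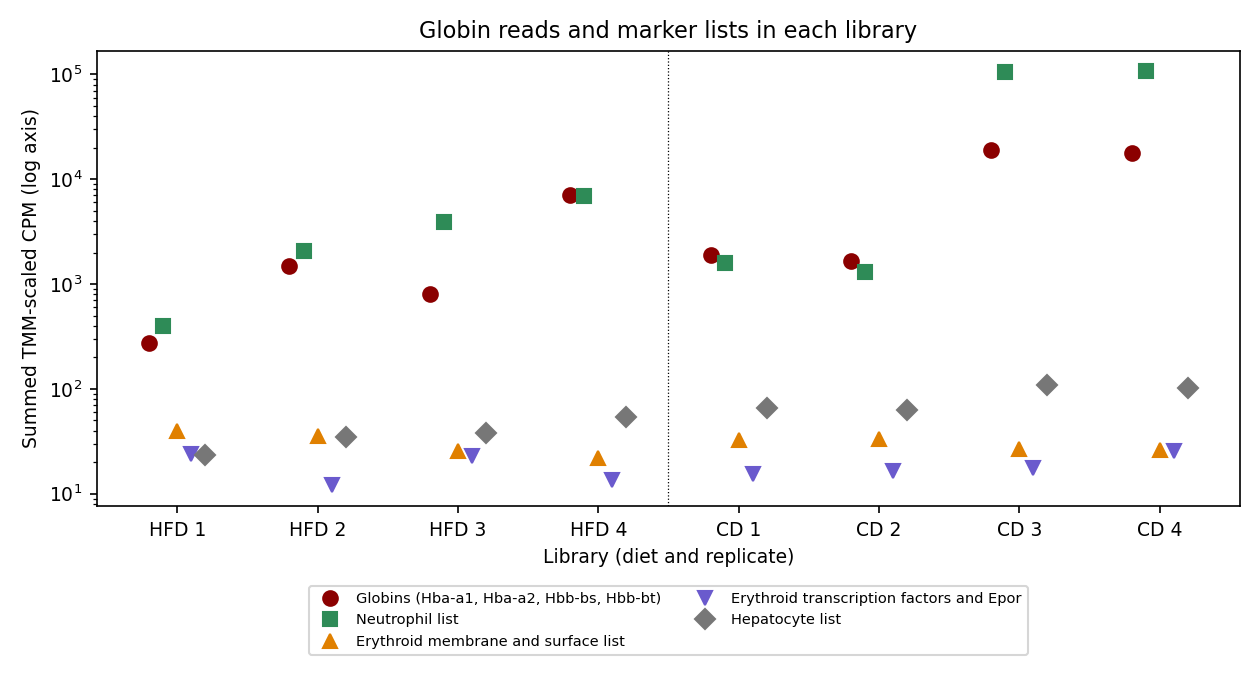
Summed TMM-scaled CPM of the 4 globins and of 4 marker lists in each library, on a log axis, with HFD libraries left of the dotted line and CD libraries right of it. Globins and the neutrophil list were both highest in CD 3 and CD 4, while the erythroid membrane list stayed between 21.9 and 39.5 CPM.

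The globins varied together across the 8 libraries. On log2 CPM, Pearson's r with Hbb-bs was 0.999 for Hbb-bt, 0.996 for Hba-a1 and 0.987 for Hba-a2, and over the 6 libraries without CD 3 and CD 4 it was 0.999, 0.990 and 0.969 in that order. Alas2 followed less closely, at 0.907 over 8 libraries and 0.708 over 6. Slc4a1 did not follow, at 0.362 over 8 libraries and 0.058 over 6. With predicted genes left out, no gene outside the globins came closer to Hbb-bs than Hba-a1 did, but Erdr1 came closer than Hba-a2. The nearest were Erdr1 (r = 0.990, Spearman's rho = 1), Ear2 (0.985), Rgs14 (0.976), H2-Q10 (0.975) and Tshb (0.974). For Alas2, again with predicted genes left out, 266 genes came closer than Hba-a1, which stood at 0.901. The nearest were Ly6a2 (0.992), Cenpl (0.987), Kansl1l (0.986), Ptgs2os2 (0.984) and Fau-ps2 (0.979). These likenesses are descriptions over 8 libraries that share the division by library and depth, and no test is attached to them.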

How the data were processed

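Per the labels' protocols, SMARTer cDNA of sorted macrophages was primed with oligo(dT), amplified by PCR, fragmented and sequenced, with no molecular identifiers described. Tools named in the submitters' processing notes are HISAT2 2.0.4, StringTie 1.3.4d and cutadapt 1.9, and the genome build is not given in the sources used here. GENCODE release M21 (GRCm38) held 42502 of the 42649 identifiers, 39373 with the same chromosome, start and end, and positions follow GRCm38. The authors deposited whole-number counts per gene, not normalised, and FPKM, scaled by gene length and depth, for each library.

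From the counts, genes were filtered with filterByExpr (count minimum 10), scaled by TMM and tested with the edgeR 4.0.16 quasi-likelihood F test in R 4.3.3, HFD against CD, two-sided, with Benjamini-Hochberg adjustment over 17367 genes and a threshold of 0.05. The script was tested on simulated data. The SE is the size of the unshrunk log2 fold change over the square root of F. FPKM served for levels per length and for the limma alternatives. DESeq2 1.42.0 and limma 3.58.1 were alternatives. The 6 genes, the lists and the tests were chosen with earlier results of these data known, and the labels' 8 samples were grouped by diet, 4 mice each. From each list up to 3 genes with the smallest p could be named, and the 5 genes nearest in Pearson's r to Hbb-bs and Alas2, without predicted genes. Some genes outside that rule were named after their values were seen. These were Klf1, Gata1, Apex2, Lyz2, S100a8, Retnlg, Camp, Ltf, Mpo, Elane and the listed hemoglobin genes. Ahsp was not analysed here.

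Whether replicate numbers pair the libraries was checked from deviations from the group means across genes. Same-numbered HFD and CD libraries correlated at 0.110, 0.292, 0.220 and 0.183. Each HFD library correlated more with the unlike-numbered CD library on its side of the division of 1 and 2 from 3 and 4. Those values were 0.160, 0.318, 0.265 and 0.203 for HFD 1 to 4. The check thus followed the division and did not establish pairing by number. The pair counts and the fit with the replicate block are given as alternatives that assume pairing. The median chi-square per gene between libraries of 1 diet was 3.50 to 100.8, so no pair was taken for a repeat of 1 library. At total counts of 37180157 to 55717378, 3 counts correspond to 0.0538 to 0.0807 CPM.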

Additional observations from a re-analysis of the deposited data

Results flagged for a closer look

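In the HFD group, HFD 4 stood far above the other HFD libraries for both beta globins, with 1096 CPM of Hbb-bs against 157 CPM in the next HFD library and 436 CPM of Hbb-bt against 65.3 CPM. HFD 1 stood far above the other HFD libraries for Slc4a1 relative to globin, with 12.4 Slc4a1 counts per 10000 globin counts against 0.798 in HFD 2. That ratio rests on 32 Slc4a1 counts in HFD 1 and on 8 counts in HFD 2. The gap of the extreme library to its nearest neighbour was divided by the range of the group. This ratio was above Dixon's 95% critical value for 4 samples in these 3 of 22 groups examined. For any 1 group, chance alone gives about 1 in 20. The groups were not independent, since Hbb-bs and Hbb-bt varied together (Pearson's r of 0.999 on log2 CPM). The 3 of 22 therefore cannot be set against that rate.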

How the results depend on the processing

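Across 20 alternatives per gene, 19 log2 fold changes of HFD over CD were negative for each of the 4 globins, 18 for Alas2 and 20 for Slc4a1. Leaving out CD 3 and CD 4 together reversed Hba-a1 (0.48), Hba-a2 (0.17), Hbb-bs (0.79), Hbb-bt (0.69) and Alas2 (0.19), and keeping only replicates 1 and 2 reversed Alas2 (0.055); the cause was not tested. Keeping only replicates 3 and 4, chosen after seeing the data, brought Alas2 past the threshold (-2.47, edgeR adjusted p = 0.0157, over alternatives 0.0157 to 0.994) and made the members called 1 of 6, where 16.5% of the 20106 genes tested were called lower. Leaving out 1 library at a time gave 0 to 1 genes called and log2 fold changes of -3.47 to -1.46 for Hba-a1, -3.30 to -1.47 for Hba-a2, -3.97 to -1.74 for Hbb-bs, -3.87 to -1.62 for Hbb-bt, -2.18 to -1.32 for Alas2 and -2.50 to -1.49 for Slc4a1, none called. The genes called, 1 of all tested in the fit with diet only, numbered 415 without the filter (119 higher and 296 lower), 639 with DESeq2 (143 higher and 496 lower), 356 with a term for numbers 1 and 2 against 3 and 4 (179 higher and 177 lower) and 5624 with numbers 3 and 4 only (2314 higher and 3310 lower). They numbered 0 with library size scaling, with the replicate block, without CD 3 and CD 4, with numbers 1 and 2 only and with limma on log2(FPKM + 1). With the replicate block the log2 fold changes were -2.13 for Hba-a1, -2.17 for Hba-a2, -2.27 for Hbb-bs, -2.22 for Hbb-bt, -1.34 for Alas2 and -2.38 for Slc4a1, and the block changed no call of a member at the adjusted threshold. Library size scaling moved the median of all genes to 0.42, and the globins then lay at -2.12 to -1.81, Alas2 at -1.30 and Slc4a1 at -1.28. Slc4a1, at 0 to 42 counts per library, is limited by depth, and on log2(FPKM + 1) its difference shrank to -0.083, where the pseudocount exceeds its level; on log2(FPKM + 0.1) it was -0.56. Alas2 stood at -0.56 on log2(FPKM + 1) and -0.94 on log2(FPKM + 0.1).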
